A study of Mus musculus with 24 samples.

Results

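The genes described here belong to the major histocompatibility complex (MHC) and to the antigen presentation route that it serves. They were all 45 symbols of the expression tables that begin with H2-, together with *B2m*, *Cd74*, *Ciita*, *Tap1*, *Tap2*, *Tapbp* and *Nlrc5*, which made 52 of 49568 genes. Of these, *H2-Ke6* carries the prefix but does not encode an MHC chain, and some others are annotated as pseudogenes. The rule used names and no measured value, although it was set with earlier results of these data known. On chromosome 17 lie 48 of the 52 genes. In each of the 2 experiments, 32 of the 52 genes passed the filter on low values and were tested.

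Mouse liver cells were sorted and profiled by bulk RNA sequencing to describe the mesenchyme around the bile ducts and its exchange with ductal cells. The homeostasis experiment held 4 fractions from each of 3 littermates, the mice A, E and F, at 12 weeks of age, so that 12 libraries were made. These mice were heterozygous for B6.129S4-Pdgfratm11(EGFP)Sor/J on a C57BL/6 background, in which a nuclear H2B-GFP reports *Pdgfra*, and A and E were male and F was female. The fractions were EpCAM+ ductal cells (DC), a PDGFRα+SCA1- fraction, a PDGFRα+SCA1+ fraction and a PDGFRα-SCA1+ fraction, all gated as CD11b-, CD45- and CD31-, where PDGFRα stands for the GFP reporter and not for an antibody stain. The transwell experiment used wild type C57BL/6 mice of 8 to 12 weeks and held 6 groups of 2 replicates, again 12 libraries. These were DCs at day 0, organoids grown from DCs for 15 days in expansion medium (EM) alone, organoids grown for 15 days in mesenchymal medium (MM) across a membrane from SCA1+Msc, SCA1+Msc at day 0, SCA1+Msc grown alone for 15 days, and SCA1+Msc grown for 15 days opposite DCs. The SCA1+Msc of this second experiment were sorted as SCA1+, CD45-, CD11b- and CD31- without a gate on PDGFRα, and for culture they were first expanded for 7 days in MM. DCs came from a pair of littermates and SCA1+Msc from another pair.

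MHC class I molecules sit on nearly all nucleated cells and show peptides from the cytosol to CD8+ T cells. Each pairs a polymorphic heavy chain with the light chain *B2m*, after the transporter *Tap1* and *Tap2* has carried peptides into the endoplasmic reticulum and *Tapbp* (tapasin) has held the empty molecule beside it. MHC class II molecules show endosomal peptides to CD4+ T cells and are mainly a feature of dendritic cells, B cells and macrophages, although interferon gamma can induce them in epithelial, endothelial and stromal cells. *Nlrc5* and *Ciita* are the related transactivators of class I and class II genes, and both act through an enhanceosome that binds the conserved X and Y boxes of the promoters.

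The RefSeq promoter table of GRCm38.p6 held 35 of the 52 genes, each as the bases from 250 before to 50 after the start of transcription. The promoters of the light chain, of both classical heavy chains, of a class II chain, and of *H2-Q6* and *H2-Q2* are printed because the levels of these genes separated fractions or cultures below. Capitals mark every match on either strand to TGACG, the half-site of the X2 box, to CCAAT, the Y box, and to GAAANNGAA, a core of the interferon-stimulated response element. In *H2-Aa* the capitals TGACGTCA hold matches on both strands that overlap. The windows are chr2:122147437-122147736 on the + strand (*B2m*), chr17:34000298-34000597 on the - strand (*H2-K1*), chr17:35262844-35263143 on the + strand (*H2-D1*), chr17:34287774-34288073 on the - strand (*H2-Aa*), chr17:35424600-35424899 on the + strand (*H2-Q6*) and chr17:35342057-35342356 on the + strand (*H2-Q2*).
B2m: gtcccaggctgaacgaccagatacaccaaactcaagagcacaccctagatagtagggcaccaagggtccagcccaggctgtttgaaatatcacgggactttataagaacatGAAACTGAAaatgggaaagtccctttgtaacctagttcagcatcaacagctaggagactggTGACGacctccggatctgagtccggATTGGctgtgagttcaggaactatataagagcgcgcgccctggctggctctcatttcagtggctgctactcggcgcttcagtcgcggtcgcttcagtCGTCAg
H2-K1: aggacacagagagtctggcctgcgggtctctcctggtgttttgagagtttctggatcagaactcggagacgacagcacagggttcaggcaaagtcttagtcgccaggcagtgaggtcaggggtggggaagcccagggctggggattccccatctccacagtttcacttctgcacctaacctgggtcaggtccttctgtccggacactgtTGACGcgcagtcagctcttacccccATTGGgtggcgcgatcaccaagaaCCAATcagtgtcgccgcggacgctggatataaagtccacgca
H2-D1: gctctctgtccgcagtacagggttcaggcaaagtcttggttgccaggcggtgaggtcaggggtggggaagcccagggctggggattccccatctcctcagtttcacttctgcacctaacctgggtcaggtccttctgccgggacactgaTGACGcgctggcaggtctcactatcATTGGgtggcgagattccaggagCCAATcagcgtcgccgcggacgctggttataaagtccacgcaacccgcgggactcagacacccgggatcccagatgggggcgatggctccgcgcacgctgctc
H2-Aa: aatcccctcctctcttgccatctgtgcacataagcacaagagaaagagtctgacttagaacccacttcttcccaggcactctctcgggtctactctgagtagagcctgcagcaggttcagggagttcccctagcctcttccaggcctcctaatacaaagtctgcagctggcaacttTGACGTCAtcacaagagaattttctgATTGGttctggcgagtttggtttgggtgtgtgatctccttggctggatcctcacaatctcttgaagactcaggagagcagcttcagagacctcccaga
H2-Q6: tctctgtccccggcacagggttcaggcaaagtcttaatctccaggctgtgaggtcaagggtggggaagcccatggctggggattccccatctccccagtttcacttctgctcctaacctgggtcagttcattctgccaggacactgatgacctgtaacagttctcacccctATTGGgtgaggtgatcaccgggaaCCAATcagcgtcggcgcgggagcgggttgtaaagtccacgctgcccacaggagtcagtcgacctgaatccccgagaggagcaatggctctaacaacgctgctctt
H2-Q2: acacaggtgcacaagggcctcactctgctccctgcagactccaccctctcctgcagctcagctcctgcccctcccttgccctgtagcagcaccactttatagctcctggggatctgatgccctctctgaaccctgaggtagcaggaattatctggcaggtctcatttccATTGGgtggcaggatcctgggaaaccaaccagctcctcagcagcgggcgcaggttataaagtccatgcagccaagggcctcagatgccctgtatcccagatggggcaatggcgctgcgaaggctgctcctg
CCAAT was found in 31 of the 35 promoters and in 37.9% of 27025 promoters of all genes. TGACG stood in 14 of the 35 and in 21% of all. A TGACG and a CCAAT with 20 to 32 bases between their starts were found in 10 of the 35 and in 1.76% of all promoters, and *B2m*, *H2-K1*, *H2-D1*, *H2-Aa*, *H2-Q7* and *H2-M3* were among the 10. GAAANNGAA was found in 3 of the 35, *B2m*, *H2-T22* and *H2-T23*, and in 8.57% of all. Only this form of the interferon-stimulated response element was searched. Promoters without a match, such as those of *H2-K1*, *H2-D1* and *H2-Q6*, may hold the element in another form, so the count does not show that they lack it. All matches given here describe letters only, and no binding was measured.

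The depth was even. The homeostasis libraries held 19.6 to 25.7 M (megareads) on genes and the transwell libraries 19.3 to 28.1 M. The ductal markers summed to 56244 to 75892 in the DCs and to at most 3784 in any other homeostasis library, and the mesenchymal markers summed to 30321 to 53462 in the PDGFRα+ fractions. The PDGFRα-SCA1+ fraction did not carry the mesenchymal profile of its label. Its mesenchymal markers summed to 290 to 481, and its endothelial markers to 2809 to 3224 against at most 31.5 in every other homeostasis library, with *Pecam1*, the gene of CD31, at 726 to 929 behind a CD31- gate. It is therefore named by its gate alone. The library of mouse F in this fraction stood apart. Its B cell gene *Cd79b* reached 259, against 44.9 and 6.74 in mice A and E, its pan-leukocyte gene *Ptprc* reached 75.2 against 0.224 and 3.10, and its T and NK cell markers summed to 436 against 15.5 and 40.7. For most genes named in this fraction, values without that library are also given. In bulk samples such as these, fewer cells of a type and less RNA per cell cannot be told apart.

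In homeostasis, levels are the deposited values, which are per gene length and per a library total and whose columns sum to 847270.0 to 1173510. Ductal cells made far more class I than class II RNA. In the DCs of mice A, E and F, *H2-D1* was at 3251, 2301 and 2453 and *H2-K1* at 2956, 2946 and 2275, while the class II chain *H2-Aa* was at 2.44, 7.97 and 25.6. Of the 52 genes, 10 were listed at 0 in all 12 homeostasis libraries, 13 in all 12 transwell libraries and 9 in both. Among the 9 was *H2-Ea-ps*, the class II alpha chain gene that C57BL/6 mice carry in inactive form. The 20 genes that were not tested in homeostasis reached at most 5.40, and those not tested in the transwell experiment reached at most 1.12 TPM, a level per gene length rescaled so that every library has the same sum. They were mostly M region genes, of which 12 of 14 were untested, with *H2-Eb2*, *H2-Ea-ps*, *H2-Pa*, *H2-Pb*, *H2-Q1*, *H2-Q3*, *H2-Bl* and *H2-T3*.

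The PDGFRα-SCA1+ fraction carried more class I RNA than the DCs. A gene was called where the adjusted p from limma, fitted on log2(value + 1) over all genes, was under 0.05. Of the 32 genes tested, 13 were higher in PDGFRα-SCA1+ cells than in DCs and 1, *H2-Q2*, was lower, against 22.8% of all genes called and 11.5% called higher. The median log2 difference was 1.85 over the 32 genes and -0.04 over all genes tested. Against PDGFRα+SCA1+ cells, 13 were higher and none lower, where 18.8% of all genes were called and 10.9% called higher, with medians of 1.67 and 0.25. Of the 2 comparisons that set a PDGFRα+ fraction against DCs, the one with PDGFRα+SCA1+ cells called 3 of 32 genes and the one with PDGFRα+SCA1- cells also 3, below the 23.8% and 28.8% of all genes. Between PDGFRα+SCA1+ and PDGFRα+SCA1- cells, limma called none of the 32 and 0.587% of all genes, and 3 of the 32 had an unadjusted p under 0.05. The DCs and the PDGFRα+SCA1+ cells each serve in several of these comparisons, so the comparisons are not independent of one another.

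*B2m*, the light chain of every class I molecule, was the most abundant of the 52 genes in each homeostasis library. Its values in mice A, E and F were 6827, 4659 and 4354 in DCs, 7869.5, 11032 and 7773 in PDGFRα+SCA1- cells, 9989, 8419.9 and 14624 in PDGFRα+SCA1+ cells, and 19272, 15925 and 23078 in PDGFRα-SCA1+ cells. All 3 DC libraries were below all 9 others, and all 3 PDGFRα-SCA1+ libraries were above them. Relative to DCs, the log2 difference was 1.89 (SE 0.25, adjusted p = 1.5e-04, limma) in PDGFRα-SCA1+ cells, 1.05 (SE 0.25, adjusted p = 0.00913) in PDGFRα+SCA1+ cells and 0.76 (SE 0.25, adjusted p = 0.0401) in PDGFRα+SCA1- cells. The last of these rests on the fit: with the mouse as a block, limma gave an adjusted p of 0.0530. PDGFRα-SCA1+ cells exceeded PDGFRα+SCA1+ cells by 0.84 (adjusted p = 0.0359), a call that was lost with the mouse as a block (adjusted p = 0.0502) and without the PDGFRα-SCA1+ library of mouse F (0.71, adjusted p = 0.117). *B2m* lies wholly within *Patl2* on the opposite strand, and the libraries did not keep strand.

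The classical heavy chains separated fewer of the fractions than the light chain did. *H2-K1* was at 1854, 2069 and 1178 in the PDGFRα+SCA1- fraction from mice A, E and F, at 1494, 1322 and 2324 in PDGFRα+SCA1+ cells and at 3465, 4154 and 4685 in PDGFRα-SCA1+ cells. The PDGFRα-SCA1+ libraries were above every other library, including the DCs. *H2-K1* was higher in PDGFRα-SCA1+ cells than in their PDGFRα+SCA1+ counterparts by 1.29 (SE 0.26, adjusted p = 0.00408, limma), while its difference from DCs was 0.59 with an adjusted p of 0.136. *H2-D1* was at 2762, 4059 and 2359 in PDGFRα+SCA1- cells, at 2443, 2505 and 3194 in PDGFRα+SCA1+ cells and at 5850.0, 4369 and 7587 in PDGFRα-SCA1+ cells. The first 2 of these fractions overlapped the DCs, and the last lay above all 9 other libraries, by 1.13 relative to DCs (SE 0.25, adjusted p = 0.00600) and by 1.10 relative to PDGFRα+SCA1+ cells (adjusted p = 0.00895).

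Among class I genes, the widest differences that were called lay in nonclassical genes. *H2-Q6*, a Qa-2 gene, was at 573, 413 and 261 in DCs, 256, 260.4 and 242 in PDGFRα+SCA1- cells, 70.2, 52.7 and 172 in PDGFRα+SCA1+ cells and 893, 955 and 1487 in PDGFRα-SCA1+ cells. PDGFRα+SCA1+ cells were lowest and PDGFRα-SCA1+ cells highest, with no overlap between these fractions or with DCs. The log2 difference between them was 3.64 (SE 0.41, adjusted p = 5.5e-05, limma), and relative to DCs *H2-Q6* was -2.19 (SE 0.41, adjusted p = 0.0017) in PDGFRα+SCA1+ cells and 1.45 (SE 0.41, adjusted p = 0.0211) in PDGFRα-SCA1+ cells. *H2-Q5*, its neighbour in the Q region, is annotated as a polymorphic pseudogene. It was at 7.63, 11.9 and 18.8 in PDGFRα+SCA1+ cells and at 89.0, 94.6 and 154 in PDGFRα-SCA1+ cells, a difference of 3.08 (adjusted p = 0.00817). In *H2-Q2* the DCs were highest. It was at 12.2, 29.4 and 13.0 in DCs and at most 5.12 in the other 9 libraries, and it was lower than in DCs by log2 differences of -3.02 (adjusted p = 0.00379) in PDGFRα+SCA1- cells, -3.19 (adjusted p = 0.00290) in PDGFRα+SCA1+ cells and -1.98 (adjusted p = 0.0424) in PDGFRα-SCA1+ cells. *H2-T23*, which encodes the Qa-1 heavy chain seen by CD94/NKG2 receptors of natural killer cells, was at 40.1, 34.8 and 28.7 in DCs and at 246, 247 and 207 in PDGFRα-SCA1+ cells. Its difference of 2.73 (SE 0.33, adjusted p = 6.9e-05) was larger than the spread of either group, and *H2-T24* differed by 3.64 (adjusted p = 0.00449) at lower levels, 0.888 to 5.55 against 39.1 to 66.4. Q and T region genes are alike in sequence: 35.0% of the 50-base windows of *H2-Q6*, 36.4% of *H2-Q5*, 16.1% of *H2-Q2* and 14.5% of *H2-T23* recur elsewhere among the transcripts, against 9.63% of *H2-K1*, 12.8% of *H2-D1* and 0% of *B2m*, so reads may have been shared or lost between these copies.

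The peptide loading genes and *Nlrc5* were also highest in PDGFRα-SCA1+ cells. *Nlrc5* was at 9.49, 10.16 and 13.2 in DCs, 15.0, 29.3 and 27.0 in PDGFRα+SCA1- cells, 9.53, 8.62 and 26.2 in PDGFRα+SCA1+ cells and 42.7, 65.5 and 69.9 in PDGFRα-SCA1+ cells. The last fraction exceeded DCs by 2.32 (SE 0.46, adjusted p = 0.00264, limma) and PDGFRα+SCA1+ cells by 2.07 (adjusted p = 0.00696). *Tap1*, a subunit of the peptide transporter, was at 17.1, 23.9 and 23.4 in DCs, 18.3, 30.4 and 10.39 in PDGFRα+SCA1- cells, 21.6, 19.3 and 43.3 in PDGFRα+SCA1+ cells and 115, 80.5 and 201 in PDGFRα-SCA1+ cells. The PDGFRα-SCA1+ libraries did not overlap with the rest, and they exceeded DCs by 2.48 (SE 0.47, adjusted p = 0.00192). *Tap2*, the other subunit, was at 41.5, 40.4 and 55.2 in DCs and at 91.7, 114 and 141 in PDGFRα-SCA1+ cells, a difference of 1.31 (SE 0.40, adjusted p = 0.0344). *Tapbp*, which bridges the transporter and the heavy chain, was at 386, 432 and 361 in DCs and at 525, 449 and 556 in PDGFRα-SCA1+ cells, and it was not called in any homeostasis comparison; its nearest was PDGFRα+SCA1- cells, at 173, 305 and 286, with a difference of -0.66 from DCs (adjusted p = 0.0535).

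**Figure D1:**
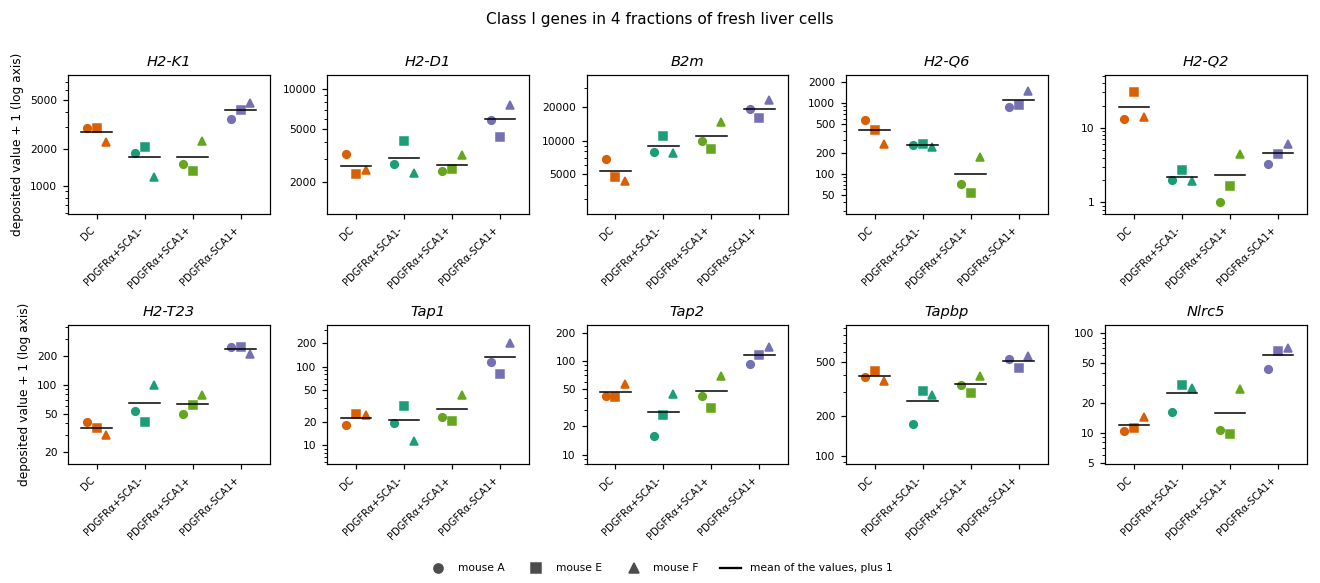
Values of 10 class I and peptide loading genes in the homeostasis experiment, on a log axis of the deposited value plus 1; each point is 1 library and each line the mean of values plus 1 over the 3 mice of a fraction. PDGFRα-SCA1+ libraries are the highest for *B2m*, *Tap1* and *Nlrc5*, and DC libraries the highest for *H2-Q2*.

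Class II chains were low in the DCs and the PDGFRα+ fractions and, among the PDGFRα-SCA1+ cells, were far higher in mouse F than in A and E. *H2-Aa*, the alpha chain of I-A, was at 2.44, 7.97 and 25.6 in DCs, 19.9, 4.24 and 34.3 in PDGFRα+SCA1- cells, 11.2, 37.5 and 17.7 in PDGFRα+SCA1+ cells and 81.2, 67.9 and 871 in PDGFRα-SCA1+ cells. All 3 PDGFRα-SCA1+ libraries were above the rest, and mouse F was far above the other mice. *H2-Aa* exceeded DCs by 4.19 (SE 1.04, adjusted p = 0.0111, limma), and by 3.01 (adjusted p = 0.0409) without the PDGFRα-SCA1+ library of mouse F. Its beta chain *H2-Ab1* was at 37.4, 23.2 and 62.3 in DCs, 18.9, 9.56 and 82.8 in PDGFRα+SCA1- cells, 21.6, 28.4 and 39.3 in PDGFRα+SCA1+ cells and 72.6, 48.6 and 895 in PDGFRα-SCA1+ cells. The groups overlapped, and the difference of 1.93 from DCs was not called (adjusted p = 0.193), although it was with the mouse as a block (adjusted p = 0.0478), and without that library it was 0.64 (adjusted p = 0.619). Against PDGFRα+SCA1+ cells the block likewise brought *H2-Aa* (3.04, adjusted p = 0.0622 without and 0.0281 with it) and *H2-Ab1* (2.31, adjusted p = 0.130 and 0.0264) past the threshold, and *H2-Aa* was at 1.87 (adjusted p = 0.223) without the mouse F library. *H2-Eb1*, the beta chain of I-E, was at 16.1, 5.68 and 60.1 in DCs, at 0, 0 and 14.2 in PDGFRα+SCA1- cells, at 33.9, 38.4 and 45 in PDGFRα+SCA1+ cells and at 98.7, 23.2 and 959 in PDGFRα-SCA1+ cells. It was called in none of the 5 comparisons, and the mouse block brought it past the threshold for PDGFRα-SCA1+ cells against DCs (adjusted p = 0.0295) and for PDGFRα+SCA1- cells against DCs (adjusted p = 0.02005).

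*Cd74*, the invariant chain that guides class II molecules to endosomes, was at 284, 205 and 519 in DCs, 0.381, 33.7 and 112 in PDGFRα+SCA1- cells, 95.5, 108 and 110.4 in PDGFRα+SCA1+ cells and 465, 152 and 3486 in PDGFRα-SCA1+ cells. DCs were above every PDGFRα+ library. PDGFRα+SCA1- cells were lower than DCs, with a log2 difference of -4.16 (SE 1.37, adjusted p = 0.0387, limma), a call that 8 of 19 alternatives lost, and PDGFRα+SCA1+ cells differed from DCs by -1.57 without a call (adjusted p = 0.459). For PDGFRα-SCA1+ cells the difference from DCs was 1.01 (adjusted p = 0.672), and it was -0.23 (adjusted p = 0.954) without the library of mouse F. *H2-DMa* and *H2-DMb1*, which form the chaperone that exchanges class II peptides, were called in no homeostasis comparison, at 0 to 42.9 and 0 to 27.0, and *Ciita* was at most 7.72, its value in the same mouse F library. *H2-Oa*, part of the complex that holds H2-DM back, was at 0 in all DCs and all PDGFRα+SCA1+ libraries and at 2.41, 2.85 and 17.9 in PDGFRα-SCA1+ cells, at least 23.2-fold and 19.97-fold higher by a floor of 3 reads per library. Without the library of mouse F these bounds were 7.79-fold and 6.70-fold, and *H2-Oa* was still called against both (1.86, adjusted p = 0.0220 and 0.0292, limma). Beside these class II values, the dendritic and B cell markers summed to 151, 148 and 561 in the PDGFRα-SCA1+ libraries of mice A, E and F and to 16.0 to 41.1 in all other homeostasis libraries, while the dendritic cell genes *Itgax* and *Flt3* were at 0 in all 3. Their part in the class II levels was not tested.

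Without the PDGFRα-SCA1+ library of mouse F, 11 of the 32 genes were called against DCs and 10 against PDGFRα+SCA1+ cells. *B2m* (1.76), *Tap1* (2.13, adjusted p = 0.00992, limma) and *H2-T23* (2.81, adjusted p = 0.000357) were still called against DCs, whereas *Tap2* (1.16, adjusted p = 0.103), *H2-Q6* (1.22, adjusted p = 0.0790) and *H2-Q2* (-2.20, adjusted p = 0.0502) were not. *H2-D1* (0.94, adjusted p = 0.0246), *Nlrc5* (2.19, adjusted p = 0.0121) and *H2-T24* (3.46, adjusted p = 0.0192) also kept their calls against DCs, while *H2-Eb1* was at 1.36 (adjusted p = 0.503). Against PDGFRα+SCA1+ cells, *H2-K1* (1.19, adjusted p = 0.0183), *H2-D1* (0.91, adjusted p = 0.0376), *H2-Q6* (3.41, adjusted p = 4.3e-04), *H2-Q5* (2.83, adjusted p = 0.0359) and *Nlrc5* (1.94, adjusted p = 0.0290) were still called, whereas *B2m*, *Tap2* (1.19, adjusted p = 0.113) and *H2-T24* (2.83, adjusted p = 0.0604) were not. The higher levels of *B2m*, *Tap1* and *H2-T23* relative to DCs were thus also measured in mice A and E. The endothelial markers given above were high in all 3 PDGFRα-SCA1+ libraries, and their part in the class I and class II values was not tested. Because mouse F was the female, its sex and the makeup of that library cannot be told apart.

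In the transwell experiment, where values are TPM, MHC genes fell when DCs became organoids. Of 32 genes tested, 22 were lower in EM organoids than in day 0 DCs and none higher, against 44.4% of all genes called and 17.2% called lower, and the median log2 difference was -1.75 against 0.12 over all genes. With genes that reached 0 set to their bound, the median of the 32 was -1.80. In co-cultured organoids 21 were lower than in day 0 DCs and none higher, against 42.3% called and 19.1% called lower, with a median of -1.41 (-1.56 at the bounds) against 0 over all genes. Both comparisons share the day 0 DCs.

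Class II RNA was all but lost in the organoids. *H2-Aa* was at 165 and 137 TPM in the 2 libraries of day 0 DCs and at 0 in all 4 organoid libraries, at least 1286-fold lower in EM organoids and 1561-fold lower in co-cultured organoids by the floor of 3 reads per library. The fresh DCs of the homeostasis experiment held less, with *H2-Aa* at 2.44, 7.97 and 25.6 and *Cd74* at 205 to 519. The size of these falls is thus that of the day 0 libraries of this experiment, and the difference between experiments was not tested. *H2-Ab1* was at 292 and 211 TPM in day 0 DCs, at 0 in both EM organoid libraries and at 1.43 and 0.0810 in co-cultured organoids. *H2-Eb1* went from 263 and 193 TPM to 1.89 and 0.926 in EM organoids and to 2.74 and 0 in co-cultured organoids, log2 differences of -6.58 (SE 0.54, adjusted p = 1.2e-05, limma) and -6.87. No organoid library overlapped a day 0 library for these chains. *Cd74* was at 1782 and 1244 TPM in day 0 DCs, 23.8 and 8.22 in EM organoids and 108 and 83.4 in co-cultured organoids. It fell in both, with log2 differences of -6.62 (SE 0.44, adjusted p = 3.5e-06) and -3.96 (SE 0.44, adjusted p = 9.0e-05), and it kept more RNA than the chains that it accompanies. *Ciita* was low throughout, at 1.73 and 2.49 TPM in day 0 DCs and at most 0.827 in organoids. *H2-DMa* fell from 11.8 and 12.0 TPM to 2.90 and 4.10 in EM organoids (-1.53, adjusted p = 0.00759) and to 4.97 and 4.61 in co-cultured organoids (-1.16). *H2-DMb1* was at 29.0 and 21.95 TPM in day 0 DCs, 5.38 and 7.59 in EM organoids and 4.89 and 0.357 in co-cultured organoids, and it was called lower only in the latter (-3.21, adjusted p = 0.00449, against -1.82, adjusted p = 0.0576).

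The classical heavy chains and *B2m* fell less than *H2-Aa*, *H2-Ab1* and *H2-Eb1*. *H2-K1* went from 3401 and 3050.0 TPM in day 0 DCs to 599.8 and 583 in EM organoids and 995 and 924 in co-cultured organoids, a log2 difference of -2.44 in EM organoids (SE 0.09, adjusted p = 2.1e-07, limma) and of -1.75 in co-cultured ones (SE 0.09, adjusted p = 1.1e-06). *H2-D1* went from 3389 and 3023 TPM to 626 and 599 in EM organoids and 1370.2 and 1283 in co-cultured organoids, differences of -2.38 (SE 0.08, adjusted p = 1.5e-07) and -1.27 (SE 0.08, adjusted p = 3.4e-06). *B2m* was at 4062 and 3704 TPM in day 0 DCs, 2381 and 2351 in EM organoids and 2172 and 2049 in co-cultured organoids, a smaller fall, with differences of -0.71 (SE 0.09, adjusted p = 1.6e-04) and -0.88 (adjusted p = 4.8e-05). For each of these 3 genes, every organoid library was below both day 0 libraries. Some Qa genes fell further: *H2-Q6* was at 496 and 435 TPM in day 0 DCs, 0.134 and 2.78 in EM organoids and 5.68 and 5.03 in co-cultured organoids, with differences of -7.81 (SE 0.46, adjusted p = 1.6e-06) and -6.20. *H2-Q7* fell too (-5.13 and -3.51), and so did *H2-Q5* (-4.76 and -4.32). *H2-Q2*, of the same family, was not called, at 10.44 and 9.67 TPM in day 0 DCs, 10.35 and 17.9 in EM organoids and 17.2 and 14.2 in co-cultured organoids (0.41, adjusted p = 0.333, and 0.59, adjusted p = 0.169).

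*Nlrc5* was at 19.3 and 23.6 TPM in day 0 DCs, 0.0165 and 0 in EM organoids and 1.45 and 0.921 in co-cultured organoids, log2 differences of -4.47 (SE 0.31, adjusted p = 4.2e-06, limma) and -3.37. At 1 and 0 reads, the EM organoid libraries were at the limit of detection for this class I transactivator, while the co-cultured ones held 110 and 59 reads. *Tap1* went from 50.2 and 46.5 TPM to 14.0 and 14.0 in EM organoids (-1.72, SE 0.31, adjusted p = 0.0016) and to 26.8 and 24.7 in co-cultured organoids (-0.88, adjusted p = 0.0455). *Tap2* went from 66.9 and 55.1 TPM to 12.9 and 10.02 (-2.32, SE 0.19, adjusted p = 1.1e-05) and 21.3 and 18.4 (-1.57, adjusted p = 1.3e-04). *Tapbp* went from 534 and 384 TPM to 178 and 202 (-1.25, SE 0.15, adjusted p = 1.2e-04) and 309.7 and 302 (-0.56, adjusted p = 0.0126). All 3 loading genes thus fell in both organoid groups, and no library of either organoid group reached a day 0 value. Beside these changes, the dendritic and B cell markers summed to 39.7 and 45.5 TPM in day 0 DCs and to 2.351 to 7.73 in the cultures, with *Ptprc* at 2.49 and 1.79 in day 0 DCs and at 0 to 0.0610 in the cultures. Of 9 leukocyte and macrophage markers tested, 7 were lower in EM organoids and 6 in co-cultured organoids, against 17.2% and 19.1% of all genes. The list summed to 7903 and 9276 TPM in day 0 DCs and to 2227 to 2627 in the organoids, most of it *Cd14*. In homeostasis, *Cd14* was lower than in DCs by log2 differences of -4.82 in PDGFRα-SCA1+ cells, -7.70 in PDGFRα+SCA1+ cells and -7.71 in PDGFRα+SCA1- cells. The sum therefore cannot be read as a level of leukocytes. *Lyz2*, a macrophage lysozyme gene, was at 107 and 73.5 TPM in day 0 DCs and at most 15.4 in organoids (-6.12 and -3.73), and *Tyrobp*, a myeloid adaptor, went from 34.7 and 32.1 TPM to 0. The hepatocyte markers summed to at least 4211 TPM in day 0 DCs and to at most 1415 in the cultures. Their part in the changes was not tested.

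Co-cultured organoids carried more class I RNA than EM organoids. Of 32 genes tested, 9 were higher and none lower, against 12.9% of all genes called and 5.73% called higher, with a median of 0.41 against -0.13 over all genes. The heavy chains *H2-D1* (1.11, SE 0.08, adjusted p = 3.9e-05, limma) and *H2-K1* (0.70, SE 0.09, adjusted p = 0.00116) were higher, with both co-cultured libraries above both EM libraries. *B2m* was not (-0.17, adjusted p = 0.289). *Tapbp* (0.69, adjusted p = 0.0152), *Tap2* (0.75, adjusted p = 0.0274) and *Nlrc5* (1.10, adjusted p = 0.0437) were higher, and *Tap1*, with a difference of 0.83, was not called (adjusted p = 0.121). *H2-T23* was at 17.1 and 10.35 TPM in EM organoids and at 33.7 and 45.3 in co-cultured organoids (1.48, SE 0.25, adjusted p = 0.00448), and *H2-Q7* and *H2-Q6* were each higher by 1.62, although the call of *H2-Q6* (adjusted p = 0.0467) was lost under 4 of 19 alternatives. *Cd74* showed the largest difference, 2.67 (SE 0.44, adjusted p = 0.00396), while *H2-Aa* was at 0 in both groups. The groups differ in medium as well as in the presence of SCA1+Msc, so the 2 cannot be told apart. Without co-cultured organoid replicate 1 or replicate 2, the count fell from 9 to 5 in each case.

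**Figure D2:**
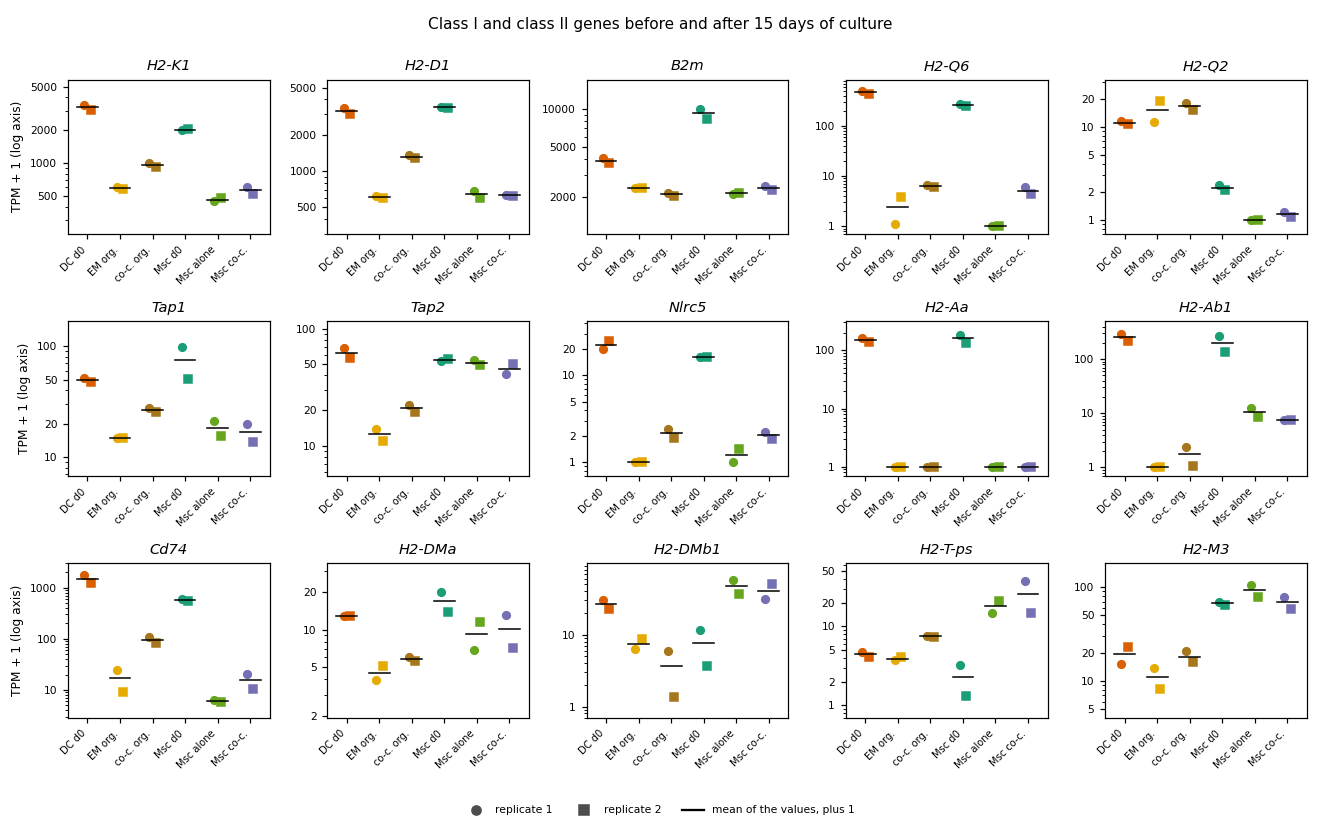
TPM of 15 MHC genes in the transwell experiment, on a log axis of TPM plus 1; each point is 1 of the 2 libraries of a group and each line the mean of values plus 1. *H2-Aa* is at 0 in all cultured groups, and the mean of *H2-DMb1* is lowest in co-cultured organoids and highest in SCA1+Msc grown alone.

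Day 0 SCA1+Msc differed from day 0 DCs in both directions. Of the 32 genes, 6 were higher and 4 lower, against 46.1% of all genes called. *B2m* was at 10009 and 8351 TPM in day 0 SCA1+Msc (1.24 above DCs, adjusted p = 4.2e-06, limma), *H2-K1* at 2012 and 2039.6 (-0.67, adjusted p = 2.6e-04), *H2-D1* at 3431 and 3393 (0.09, adjusted p = 0.408) and *Cd74* at 615 and 556 (-1.35, adjusted p = 0.0308). The light chain was thus higher and *H2-K1* lower, with no overlap of libraries. The largest differences among the other genes were in *H2-Q10*, *H2-Q2* and *H2-M3*. *H2-Q10*, a class I gene expressed mainly in liver parenchyma and secreted, was at 32.6 and 29.1 TPM in day 0 DCs and 193 and 187 in day 0 SCA1+Msc (2.58, adjusted p = 0.00126). The hepatocyte markers summed to 20788 and 16122 TPM in these SCA1+Msc libraries and to 4211 to 5294 in the DCs, and their part in the *H2-Q10* value was not tested. *H2-Q2* was at 1.34 and 1.07 TPM against 10.44 and 9.67 in DCs (-2.33, adjusted p = 2.4e-04). *H2-M3*, whose product presents N-formylated bacterial peptides, was at 68.7 and 63.5 TPM against 14.1 and 22.2 (1.84, adjusted p = 9.4e-04).

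Most of the tested MHC genes were lower after culture in SCA1+Msc as well. Of 32 genes, 21 were lower and 2 higher after culture alone, against 44.8% of all genes called and 17.5% called lower, with a median of -1.90 (-2.27 at the bounds) against 0.19 over all genes. Opposite DCs, 21 were lower and 2 higher, against 43.3% called and 17.3% called lower, with a median of -1.84 (-2.03 at the bounds) against 0.17. The day 0 libraries serve in both comparisons. Between SCA1+Msc grown opposite DCs and alone, limma called none of the 32 and 0.127% of all genes, and 6 of the 32 had an unadjusted p under 0.05. For *H2-K1* that difference was 0.28 (adjusted p = 0.517), for *Nlrc5* 0.76 (adjusted p = 0.666), for *Cd74* 1.28 (adjusted p = 0.554) and for *H2-Eb1* -1.71 (adjusted p = 0.483).

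*B2m* went from 10009 and 8351 TPM in day 0 SCA1+Msc to 2136 and 2169 alone and 2465 and 2269 opposite DCs, log2 differences of -2.09 (adjusted p = 2.9e-07, limma) and -1.95 (adjusted p = 4.5e-07). *H2-D1* was at 684 and 602 TPM alone and 635 and 627 opposite DCs (-2.41 and -2.43), and *H2-K1* at 450.4 and 475 alone and 609 and 518 opposite DCs (-2.13 and -1.85). All cultured libraries were below the day 0 libraries for these 3 genes. *H2-Q6* was at 279.7 and 249.7 TPM at day 0, at 0 in both libraries grown alone and at 4.999 and 3.32 opposite DCs, at least 1383-fold lower alone and -5.70 on the log2 scale opposite DCs. *H2-Q10* fell from 193 and 187 TPM to 2.52 and 4.40 alone (-5.45) and 12.9 and 4.24 opposite DCs (-4.48). Beside it, the hepatocyte markers summed to 16122 to 20788 TPM at day 0, at most 12.7 alone and at most 369 opposite DCs, and their part was not tested. *H2-Q5* fell in both (-4.57 and -4.36). *Nlrc5* went from 15.1 and 15.3 TPM to 0 and 0.432 alone (-3.76, adjusted p = 1.3e-05) and to 1.21 and 0.864 opposite DCs (-3.0).

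The 2 transporter subunits parted in SCA1+Msc. *Tap1* was at 97.4 and 49.6 TPM at day 0, 20.2 and 14.5 alone and 18.9 and 12.6 opposite DCs, with log2 differences of -1.96 (adjusted p = 7.5e-04, limma) and -2.10 (adjusted p = 5.2e-04). *Tap2* was at 51.8 and 54.6 TPM at day 0, 53.1 and 47.7 alone and 40.0 and 48.6 opposite DCs, and neither difference was called (-0.08, adjusted p = 0.782, and -0.27, adjusted p = 0.283). *Tapbp* was at 422 and 400.1 TPM at day 0, 296 and 266 alone and 255 and 227 opposite DCs, with differences of -0.55 (adjusted p = 0.0140) and -0.77 (adjusted p = 0.00244).

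The class II chains fell with the class I genes. *H2-Aa* was at 183 and 134 TPM in day 0 SCA1+Msc and at 0 in all 4 cultured libraries, at least 1509-fold lower alone and 1355-fold lower opposite DCs. The fresh PDGFRα+SCA1+ cells of the homeostasis experiment, sorted by another gate, held *H2-Aa* at only 11.2, 37.5 and 17.7. *H2-Ab1* was at 261 and 132 TPM at day 0, 11.6 and 7.63 alone (-4.16, adjusted p = 5.4e-05, limma) and 6.46 and 6.52 opposite DCs (-4.64, adjusted p = 2.8e-05), so unlike its partner chain it was still detected in each cultured library. *H2-Eb1* was at 311 and 205 TPM at day 0, 2.53 and 3.67 alone and 0.133 and 0.351 opposite DCs. *Cd74* was at 615 and 556 TPM at day 0, 5.27 and 4.72 alone (-6.61, adjusted p = 4.0e-06) and 19.4 and 9.33 opposite DCs (-5.34, adjusted p = 1.5e-05), and *Ciita* went from 1.73 and 1.37 TPM to 0 in all 4. Beside these falls, *Ptprc* was at 2.24 and 0.592 TPM in the day 0 libraries and at 0 in the cultured ones. Of the 9 leukocyte and macrophage markers tested, 5 were lower alone and 6 opposite DCs, against 17.5% and 17.3% of all genes. *Tyrobp* was at 68.9 and 90.03 TPM at day 0 and 3.08 to 22.8 in culture. *Lyz2* went the other way without a call, alone (1.94, adjusted p = 0.0512, limma) and opposite DCs (1.12, adjusted p = 0.240). *Csf1r* was not called either (0.11 and 0.21). The endothelial markers summed to 262 to 268 at day 0 and 91.8 to 182 in culture. The part of these leukocyte, macrophage and endothelial markers was not tested.

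The 2 genes that rose in both SCA1+Msc cultures were *H2-DMb1* and *H2-T-ps*. *H2-DMb1* was at 10.504 and 2.70 TPM at day 0, 57.0 and 35.7 alone and 30.4 and 49.7 opposite DCs, log2 differences of 2.82 (SE 0.69, adjusted p = 0.00849, limma) and 2.61 (adjusted p = 0.0127). Its partner *H2-DMa* did not rise: it was at 19.2 and 12.8 TPM at day 0, 5.88 and 10.51 alone and 12.0 and 6.16 opposite DCs (-0.91, adjusted p = 0.0722 alone). *H2-T-ps*, a pseudogene of the T region, was at 2.28 and 0.313 TPM at day 0, 13.7 and 20.2 alone and 36.3 and 13.8 opposite DCs, with differences of 3.09 (SE 0.51, adjusted p = 8.9e-04) and 3.50 (adjusted p = 4.4e-04). For both genes all 4 cultured libraries were above both day 0 libraries. Their reads carry a limit, since 22.7% of the windows of *H2-DMb1* recur in *H2-DMb2* or elsewhere, and *H2-T-ps* overlaps *Gm7030* on the same strand and has 29.4% of its windows elsewhere.

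**Figure D3:**
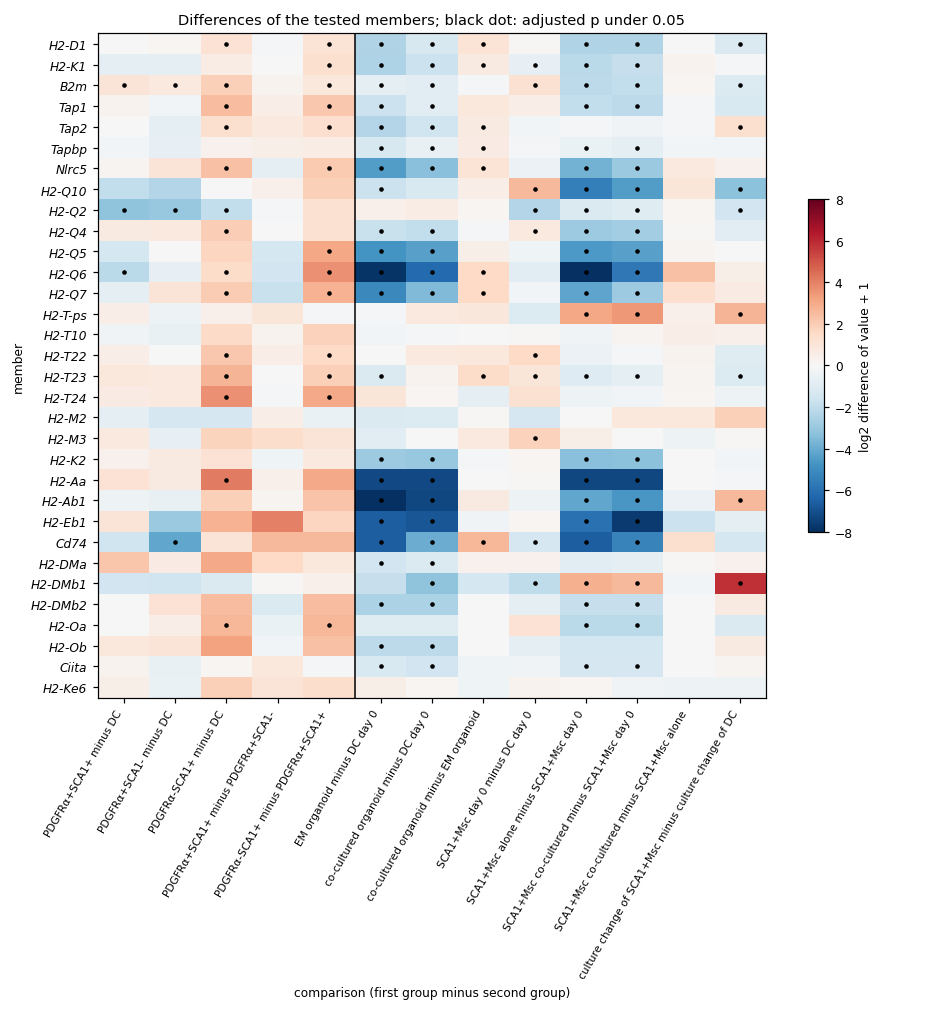
Log2 differences of the 32 tested genes in the 13 comparisons of both experiments, in colour, with a black dot where the adjusted p from limma was under 0.05. The columns of cultured against day 0 cells hold 21 or 22 lower genes each, and the column of SCA1+Msc opposite DCs against alone holds no dot.

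The change in culture was then compared between the cell types, as the difference between the change of SCA1+Msc (opposite DCs minus day 0) and that of the DC lineage (co-cultured organoids minus day 0). Of 32 genes, 9 differed, 4 upward and 5 downward, against 28.3% of all genes called, so the share was that of the background. *B2m* (-1.07, SE 0.13, adjusted p = 3.2e-04, limma) and *H2-D1* (-1.16, SE 0.12, adjusted p = 1.4e-04) fell further in SCA1+Msc, whereas the falls of *H2-K1* differed by -0.10 (SE 0.13, adjusted p = 0.609). *Tap2* differed by 1.30 (SE 0.26, adjusted p = 0.00553), as it fell in the DC lineage and was level in SCA1+Msc within the error, and *H2-Ab1* by 2.62 (SE 0.61, adjusted p = 0.0109). *H2-DMb1* differed most, by 5.83 (SE 0.98, adjusted p = 0.00226), having fallen in one cell type and risen in the other. *H2-Q10* (-3.27, adjusted p = 0.00518), *H2-T-ps* (2.74, adjusted p = 0.0190) and *H2-Q2* (-1.54, adjusted p = 0.0288) also differed, and *Cd74* did not pass the test (-1.38, adjusted p = 0.131).

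**Figure D4:**
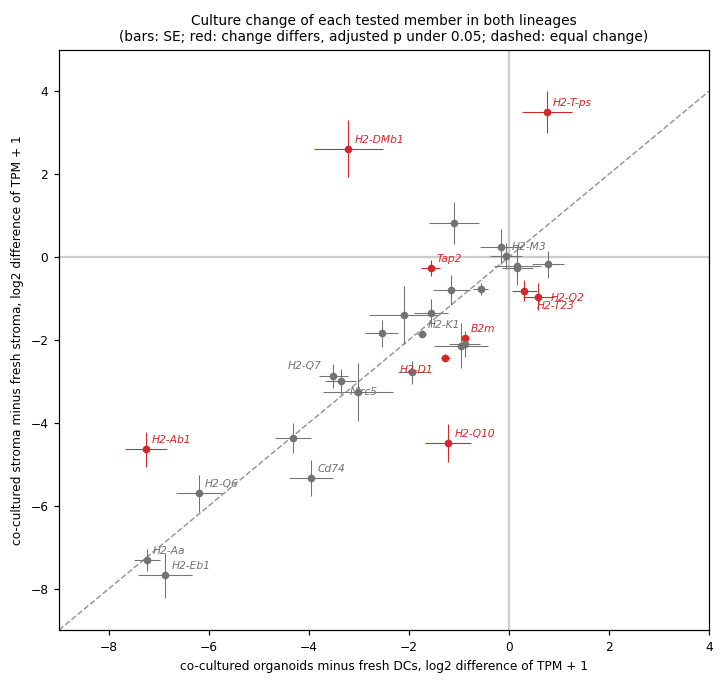
Log2 difference of co-cultured organoids from day 0 DCs (x axis) against that of SCA1+Msc grown opposite DCs from day 0 SCA1+Msc (y axis) for the 32 tested genes, with standard errors as bars. The dashed line marks an equal change, and red points are the 9 genes whose changes differed, with *H2-DMb1* the farthest from the line.

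The other genes of the route were read from lists of named pathway genes. The immunoproteasome list holds *Psmb8*, *Psmb9* and *Psmb10*, the inducible catalytic subunits that favour class I peptides, and the activator subunits *Psme1* and *Psme2*. Of its 5 genes, 3 were higher in PDGFRα-SCA1+ cells than in DCs and all 5 were higher than in PDGFRα+SCA1+ cells, against 11.5% and 10.9% of all genes, and without the library of mouse F the counts were 1 and 4. *Psmb8* was at 42.9, 61.8 and 75.5 in DCs and at 223, 259 and 375 in PDGFRα-SCA1+ cells, higher in every mouse and by 2.23 (SE 0.49, adjusted p = 0.00506, limma), or 2.02 (adjusted p = 0.0230) without that library. In EM organoids 2 of the 5 were lower than in day 0 DCs, against 17.2% of all genes, with *Psmb8* at 78.7 and 62.3 TPM at day 0 and 14.9 and 15.3 in EM organoids (-2.14, adjusted p = 9.3e-06). In SCA1+Msc, 2 of the 5 fell alone and none opposite DCs, against 17.5% and 17.3% of all genes. Among the constitutive counterparts, *Psmb5* rose from 157 and 141 TPM in day 0 DCs to 378 and 362 in EM organoids (1.31). *Psmb6* (0.24, adjusted p = 0.107, limma) and *Psmb7* (-0.22, adjusted p = 0.274) were not called.

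Of the 7 interferon gamma signalling genes, 5 were lower in EM organoids than in day 0 DCs, against 17.2% of all genes. *Irf1*, an interferon-induced activator of class I and *Ciita* promoters, was at 309 and 287 TPM in day 0 DCs, 75.6 and 73.1 in EM organoids and 39.4 and 52.7 in co-cultured organoids. In SCA1+Msc it was at 746 and 698 TPM at day 0, 43.3 and 42.4 alone (-4.04) and 46.3 and 32.4 opposite DCs (-4.18), a fall in all 4 cultured libraries. *Jak1* (-1.02 and -1.03) and *Socs1* (-2.64 and -3.08) were also called lower alone and opposite DCs. The receptor genes *Ifngr1* (0.89 and 0.70) and *Ifngr2* (1.65 and 1.92) were called higher in both. Of all genes, 44.8% and 43.3% were called there. Between co-cultured and EM organoids, 5 of the 7 were higher, against 5.73% of all genes, and *Irf1* was lower (-0.69, adjusted p = 0.0341, limma). In homeostasis, *Irf1* was higher in PDGFRα-SCA1+ cells than in DCs by 2.21 (adjusted p = 1.9e-04), and by 2.10 (adjusted p = 0.0013) without the library of mouse F. *Jak1*, *Socs1* and *Jak2* were also higher there, whereas *Ifngr1* (-1.53, adjusted p = 0.0379, limma) and *Ifngr2* (-1.41, adjusted p = 0.0238) were lower. Without the library of mouse F, 4 of the 7 were higher and 2 lower. In the full fit 11.5% of all genes were called higher. The 7 factors that bind class II promoters, among them *Rfx5* and *Nfya*, had at most 2 of 7 called in any of the comparisons of cell groups, and *Rfx5* and *Nfya* themselves were called in none of these. The comparisons with 2 called set PDGFRα+SCA1- cells, co-cultured organoids and day 0 SCA1+Msc against DCs of their experiment. Of all genes, 28.8%, 42.3% and 46.1% were called there, so these counts were not above the background.

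Most endosomal genes of the class II route were higher in EM organoids than in day 0 DCs. Of 6 genes, 4 rose, with *Ctsd*, an endosomal protease, at 188 and 205 TPM in day 0 DCs and at 981 and 867 in EM organoids (2.22, adjusted p = 2.7e-07, limma). *Ctss*, the protease that cleaves the last part of the invariant chain, fell from 20.4 and 15.2 TPM to 0 in both (-4.22, adjusted p = 6.0e-04). In homeostasis 5 of the 6 were higher in PDGFRα-SCA1+ cells than in DCs, with and without the library of mouse F, against 11.5% of all genes. *Ctss* was higher than in DCs by 6.33 (adjusted p = 0.00128), and by 5.64 (adjusted p = 0.00770) without the library of mouse F. Fewer of these genes separated the 2 SCA1+ fractions from each other. With the mouse F library left out, limma called 2 of the 6 higher and 1 lower relative to PDGFRα+SCA1+ cells. Of the 5 genes for trimming and loading in the endoplasmic reticulum, 2 rose (*Pdia3* and *Canx*) and 2 fell (*Erap1* and *Tapbpl*) in EM organoids. These counts stand beside the 44.4% of all genes called in that comparison.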

How the data were processed

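Libraries were made by Smart-seq2 without strand information and read as single 50-base reads. Per the submitters' processing notes and the methods of the study, the authors aligned with STAR 2.5.0a to GRCm38 and counted reads over exons with featureCounts 1.6.0. The transwell table was deposited by the authors as RPKM, and each column was scaled here to TPM. The homeostasis table, deposited as a signal that the authors named TPM, was used as it stands. Its columns sum to 847270.0 to 1173510 and differ between libraries, because the totals in the denominators belong to other columns, so a value is 0.722 to 1.39 of the true TPM. Reads per library were recovered from the steps of low values, 92.9% and 93.0% of which were whole within 0.02 of a read up to 20 reads. The 4 deposited columns of means were not used.

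Values were tested on the log2 scale of value + 1, so that a log2 difference understates the change of low genes, with limma 3.58.1 in R 4.3.3, with trend, 1 mean per group and all 12 libraries of an experiment, two-sided, with Benjamini-Hochberg adjustment over 17028 genes at 1 or more in at least 3 libraries (homeostasis) or 18136 genes at 1 or more in at least 2 (transwell). There were 5 and 8 comparisons. The SE is that of the limma fit. The fit was tested on simulated data. Summaries were computed in Python 3.11.15 (pandas 2.3.3, numpy 2.4.6, scipy 1.17.1). The genes and lists were chosen with earlier results of these data known. The genes named with values were H2-K1, H2-D1, B2m, Tap1, Tap2, Tapbp, Nlrc5, H2-Aa, H2-Ab1, H2-Eb1, Cd74, H2-DMa, H2-DMb1 and Ciita, with the 3 other called genes of largest log2 difference in each comparison. Fractions of 1 mouse share its letter and are paired by animal, with residual correlations averaging 0.0187 to 0.0624 between fractions; the value with the mouse as a block is given where it changes a call. Nothing in the sources says that transwell libraries come from more than a pair of littermates per cell type, so their p-values measure the spread between these libraries. A fold against a group at 0 uses a floor of 3 reads per library, and floors cover counting error only. Alternatives were a pseudocount of 0.1, no filter, a minimum of 5, quantile normalization, the compared groups only, the block, leaving out each library, RPKM as deposited and, added after the data were seen, the homeostasis totals put right.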

Additional observations from a re-analysis of the deposited data

Results flagged for a closer look

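For 9 genes the change of SCA1+Msc in culture differed from the change of the DC lineage, by the limma test of that difference itself (the change of SCA1+Msc opposite DCs from day 0, minus the change of co-cultured organoids from day 0). The log2 values were -3.27 for *H2-Q10*, -1.54 for *H2-Q2*, -1.16 for *H2-D1*, -1.11 for *H2-T23* and -1.07 for *B2m*, all with the lower change in SCA1+Msc. This does not mean a fall in both lineages, since *H2-Q2* did not fall in the DC lineage. They were 1.30 for *Tap2*, 2.62 for *H2-Ab1*, 2.74 for *H2-T-ps* and 5.83 for *H2-DMb1*, all with the lower change in the DC lineage. The largest adjusted p among the 9 was that of *H2-T23*, 0.0431 (SE 0.36).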

How the results depend on the processing

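Of the 150 single calls, 96 stayed past the threshold under every alternative; of 2830 values 2587 kept their side of the threshold, 243 lost it and 0 changed sign. For PDGFRα+SCA1+ cells against DCs the count of called genes, 3, was 5 under quantile normalization, 7 with the compared groups only and 2 to 6 when 1 library was left out, with 6 without the PDGFRα+SCA1- library of mouse F. For PDGFRα+SCA1- cells against DCs the count, 3, was 1 without a filter, 6 under quantile normalization, 1 with the compared groups only, 6 with the totals put right and 1 to 8 with 1 library left out. It was 8 without mouse F and 6 without mouse E of the PDGFRα+SCA1- cells, and 1 without PDGFRα+SCA1- mouse A, DC mouse F, PDGFRα+SCA1+ mouse A or PDGFRα-SCA1+ mouse A. Between the PDGFRα+ fractions it was 0 to 2 (2 without PDGFRα+SCA1- mouse F, 1 without PDGFRα+SCA1+ mouse F). Co-cultured against EM organoids gave 3 of 9 with the compared groups only and 5 to 9 with 1 library left out. SCA1+Msc opposite DCs against alone gave 0 to 1 (1 without either EM organoid library), and the difference of changes gave 5 to 9 (5 without DC day 0 replicate 1). The other counts with 1 library left out were 11 to 17 and 10 to 15 for PDGFRα-SCA1+ cells against DCs and PDGFRα+SCA1+ cells, 19 to 23 and 17 to 22 for EM and co-cultured organoids against DCs, 8 to 11 for SCA1+Msc against DCs, and 21 to 23 and 20 to 23 for SCA1+Msc alone and opposite DCs against day 0. The cause was not tested. With the mouse letter as a replicate block the homeostasis counts were 3, 4, 17, 0 and 14; beside the calls named in the report it gained *H2-Q10* for PDGFRα+SCA1- cells (adjusted p = 0.0476, limma) and *H2-Ke6* for PDGFRα-SCA1+ cells (0.0490) against DCs, and it changed no other call in that experiment. Transwell replicates share only a number (residual correlations -0.0188 to 0.0295), and a replicate block gave 25, 22, 7, 10, 23, 23, 0 and 11 called genes, with *Nlrc5* (adjusted p = 0.0626, limma) and *H2-Q6* (0.0623) lost between co-cultured and EM organoids. Quantile normalization moved the median log2 difference of all genes by 0.18, 0.34, -0.13 and -0.20 in the homeostasis comparisons other than PDGFRα-SCA1+ cells against DCs, by -0.12 for EM organoids against DCs and by 0.11 between the organoids. The totals put right moved it by 0.16 and 0.18 for the PDGFRα+SCA1+ and PDGFRα+SCA1- cells against DCs, and RPKM as deposited moved the difference of changes by -0.16. The share of called genes that were higher went under quantile normalization from 34.6% to 46.1% for PDGFRα+SCA1- cells against DCs, from 74.0% to 57.4% between the PDGFRα+ fractions and from 58.1% to 45.7% for PDGFRα-SCA1+ against PDGFRα+SCA1+ cells; of the 32 genes, the split in the last was 13 higher and 0 lower in both. With 2 or 3 libraries a group, values near 0 rest on few reads.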

Other observations

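Among class I-like molecules outside the H2 symbols, *Procr*, the endothelial protein C receptor, was at 2423, 3831 and 5545 in the PDGFRα+SCA1+ fraction from mice A, E and F and at 2.60, 5.70 and 8.48 in DCs, a log2 difference of 9.25. In SCA1+Msc it was at 2100 and 1934 TPM at day 0, 28.1 and 51.9 after culture alone and 77.8 and 38.875 opposite DCs, so all 4 cultured libraries were below both day 0 libraries.

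Of the costimulatory and inhibitory ligands, *Cd274*, which encodes PD-L1, was at 24.5 and 32.6 TPM in day 0 SCA1+Msc, 0 and 0.412 alone (-4.62 on the log2 scale) and 0.392 and 0.535 opposite DCs (-4.32). *Icosl*, the ligand of the T cell receptor ICOS, was at 158, 158 and 156 in PDGFRα+SCA1+ cells and at 3.70, 2.352 and 0.0580 in DCs, a difference of 5.95 with no overlap of libraries. It was also above DCs in PDGFRα+SCA1- cells (4.55, adjusted p = 4.6e-05, limma) and in PDGFRα-SCA1+ cells (3.97, adjusted p = 1.5e-04). Between the PDGFRα+ fractions it was not called (1.41, adjusted p = 0.322).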
